A study of Mus musculus with 2 samples.

Results

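The genes described here carry symbols given to proteins of the mitochondrial ribosome, the machine that translates the messenger RNAs of the mitochondrial genome. They were chosen by symbol alone, as every listed gene whose name is Mrpl (large subunit) or Mrps (small subunit) followed by a digit. This gave 78 of the 32285 genes listed, 49 Mrpl and 29 Mrps. A symbol does not show that each product sits in that subunit, or in the ribosome. Values of the 2 subunits below follow the symbols. They were measured by single-cell RNA sequencing in T cells from EMT6 tumours, a mouse mammary carcinoma line grown under the skin of BALB/c mice aged 4 to 6 weeks. Mice entered the study at tumour volumes of 80 to 150 mm3 and received mSTAR1302, an antibody to a subset of T cell receptor Vβ chains that is fused to interleukin 2, as 2 weekly injections into the peritoneum, or vehicle. CD4+ and CD8+ cells were taken from digested tumours with magnetic beads and kept in culture medium before loading, and each group is 1 library. How many mice gave cells to each library is not given in the labels used here. Both groups carried the same tumour and shared the strain, age and cell isolation, and no group was without a tumour.

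Mitochondrial ribosomes are made of RNA transcribed in mitochondria and of proteins encoded in the nucleus, translated in the cytosol and imported. Their products are core subunits of the respiratory chain and of ATP synthase, so the supply of these proteins is tied to respiration. T cells that are activated enlarge their mitochondria and raise mitochondrial translation, and both CD8+ effector cells and regulatory T cells are known to depend on it.

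With 1 library in each group there was no test between the groups. Intervals are exact 95% intervals and cover counting error only, not differences between mice or preparations, and the effect of treatment and the difference between 2 preparations cannot be told apart. The mSTAR1302 library held 96486469 UMIs (unique molecular identifiers, 1 per captured transcript) and the vehicle library 110026997. After filters on UMIs, genes and mitochondrial share, 9155 and 7615 cells were kept with medians of 6260 and 8448 UMIs. The members received 275805 UMIs (0.397%) and 359307 UMIs (0.428%) in these cells. T cells were gated by their own UMIs as CD8 (6290 and 2460 cells), CD4 without a Foxp3 UMI (791 and 622) and CD4 with a Foxp3 UMI (146 and 1365). Foxp3 marks regulatory T cells, and a CD4 cell with no Foxp3 UMI may still express it. All 8 T cell markers had UMIs in every gate, with summed levels of 6339 counts per 1000000 UMIs (CPM) in CD8 cells of the mSTAR1302 library and 6433 CPM in those of the vehicle library. Markers of macrophages and monocytes were uneven between the libraries in each gate. All 6 had UMIs in the CD8 gate of both libraries, with a summed level of 64.6 CPM in the mSTAR1302 library against 685 CPM in the vehicle library, and 14.8% against 46.9% of CD8 cells held such a UMI. Other lists were uneven in CD8 cells too. Fibroblast markers summed to 26.5 and 102 CPM (1.21% and 9.27% of cells), EMT6 tumour markers to 8.24 and 51.4 CPM with Krt7 at 0 in the vehicle library, and dendritic cell markers to 2.68 and 21.6 CPM. NK cell markers lay the other way, at 17.0 and 6.29 CPM. Foxp3 was uneven as well: 6097 of 6290 CD8 cells of the mSTAR1302 library held no Foxp3 UMI, and 2058 of 2460 in the vehicle library. The part of these cells in the results was not tested, except where values without macrophage marker cells or without Foxp3 cells are given. In near-empty droplets, those of 10 to 100 UMIs, the macrophage list stood at 387 and 1176 CPM.

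The 78 genes lie on 17 chromosomes, with the largest number, 11, on chromosome 11. In the GENCODE annotation of GRCm38, 18 of them (23.1%) have a protein-coding neighbour that starts within 1000 bp on the opposite strand and runs the other way, against 1465 of 21625 protein-coding genes (6.77%). Such divergent pairs join Mrpl30 to Mitd1, whose protein acts late in cell division, Mrps12 to Sars2, a mitochondrial tRNA synthetase, and Mrpl49 to Fau, which encodes a cytosolic ribosomal protein. 32 members overlap another listed gene, 3 of them on the same strand, namely Mrps6 with Slc5a3 and Gm16310, Mrps34 with Nme3, and Mrps24 with Urgcp. Reads from such shared stretches cannot be assigned to 1 gene by position alone.

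Promoter windows of 250 bases before to 50 after the start were taken from RefSeq on GRCm38.p6 for the 69 members with an entry and for all 20267 listed genes with one. Both strands were searched for the letters of motifs named after factors that are known to control mitochondrial genes. The ETS-type motif of GABP (CCGGAAG) was found in 26 members (37.7%) against 12.03% of all genes. YY1's motif (AANATGGC) was found in 21 members (30.4%) against 7.28%, and that of NRF1 (GCGC, any 2 bases, GCGC) in 14 (20.3%) against 8.70%. At least 1 of these 3 was present in 48 members (69.6%) and in 24.2% of all genes. Other motifs were near the share of all genes. SP1's GC box (GGGCGG) occurred in 34 members (49.3%) against 45.8%, the E-box of Myc (CACGTG) in 5 (7.25%) against 8.82%, and the cyclic AMP response element (TGACGTCA) in 2 (2.90%) against 2.46%. In most of the 21 members with YY1's motif a match began after the start. A match is a run of letters and no evidence of binding.

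**Figure D1:**
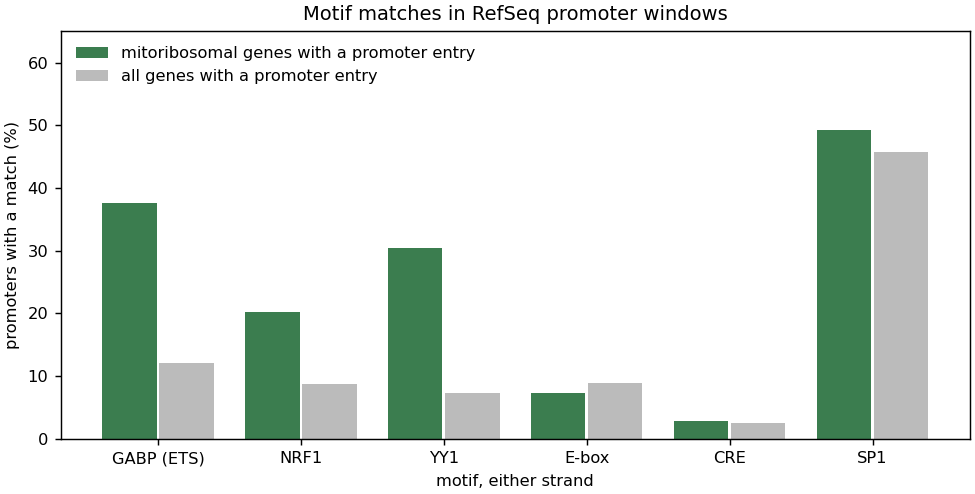
Share of promoter windows (y axis, percent) with at least 1 match to each motif (x axis), for the 69 mitoribosomal genes with a RefSeq promoter entry (green) and all 20267 listed genes with one (grey). The bars of GABP, NRF1 and YY1 are higher in the mitoribosomal genes (37.7%, 20.3% and 30.4%), and those of the other 3 motifs are close to the grey bars.

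The following stretches before the start are shown for 6 members on which the results below turn, or which show a motif upstream of the start. Each is the part within 160 bases of the RefSeq start that no annotated exon of either strand touches, and capitals mark motif matches, so that abutting matches appear as 1 run. Mrps6, the member with the lowest ratio in CD8 cells, has 4 GC boxes (chr16:92058176-92058269, plus strand, from 160 to 67 bases before the start), the first pair overlapping by 1 base:
Mrps6: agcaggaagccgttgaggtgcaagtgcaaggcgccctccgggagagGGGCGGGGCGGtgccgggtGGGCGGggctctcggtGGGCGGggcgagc
Mrpl30, the member with the highest ratio in CD8 cells, has an NRF1 match that begins 83 bases before the start, outside the stretch shown. The 65 bases that separate Mrpl30 from Mitd1 (chr1:37890412-37890476, plus strand) hold no match:
Mrpl30: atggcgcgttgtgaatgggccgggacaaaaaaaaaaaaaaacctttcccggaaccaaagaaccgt
Mrpl52, one of the most abundant members, has a GABP match that begins 47 bases before the start (chr14:54426749-54426908, plus strand):
Mrpl52: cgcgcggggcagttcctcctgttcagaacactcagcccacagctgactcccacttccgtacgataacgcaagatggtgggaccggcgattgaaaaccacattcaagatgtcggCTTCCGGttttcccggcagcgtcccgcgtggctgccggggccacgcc
Mrpl58, higher in the mSTAR1302 library in the 3 gates, has a GABP match that begins 17 bases before the start (chr11:115403592-115403751, plus strand):
Mrpl58: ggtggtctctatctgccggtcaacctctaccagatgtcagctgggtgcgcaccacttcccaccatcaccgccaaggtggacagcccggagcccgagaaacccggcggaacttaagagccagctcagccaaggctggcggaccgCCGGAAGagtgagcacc
Mrpl45, the member with the lowest ratio past the filter in CD4 cells with Foxp3, has NRF1 matches that begin 120 and 38 bases before the start (chr11:97315556-97315715, plus strand):
Mrpl45: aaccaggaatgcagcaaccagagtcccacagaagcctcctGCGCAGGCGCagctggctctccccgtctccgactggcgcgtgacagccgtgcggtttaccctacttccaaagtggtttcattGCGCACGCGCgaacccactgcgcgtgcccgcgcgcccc
Mrpl24, at the exit of the nascent chain, carries a YY1 match that begins 153 bases before the start (chr3:87919384-87919505, plus strand):
Mrpl24: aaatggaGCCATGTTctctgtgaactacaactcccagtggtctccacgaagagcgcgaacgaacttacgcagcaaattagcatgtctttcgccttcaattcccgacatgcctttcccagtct

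Levels of the members spanned about 2 orders of magnitude in CD8 cells, from a mean of both libraries of 3.76 to 286 CPM, with a median of 36.6 CPM. Each UMI stands for 1 captured 3' end, so levels were compared between genes without dividing by length, and capture may still differ between genes. Mrpl33, a small protein of the large subunit, was highest with 294 CPM in the mSTAR1302 library and 279 CPM in the vehicle library, followed by Mrpl52 with 225 and 262 CPM. Mrps14, of the small subunit head, stood at 128 and 132 CPM, and Mrps16 at 133 and 120 CPM. Mrps24 (122 and 108 CPM) and Mrps21 (106 and 127 CPM) came next. The 10 highest members held 35.6% and 34.1% of all member UMIs, and Mrpl33 and Mrpl52 were the highest of the 78 in all 3 gates. Mrpl47, Mrps27 and Mrps2 lay below 10 CPM in each gate, and Mrpl37 and Mrps22 in the CD4 gates.

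**Figure D2:**
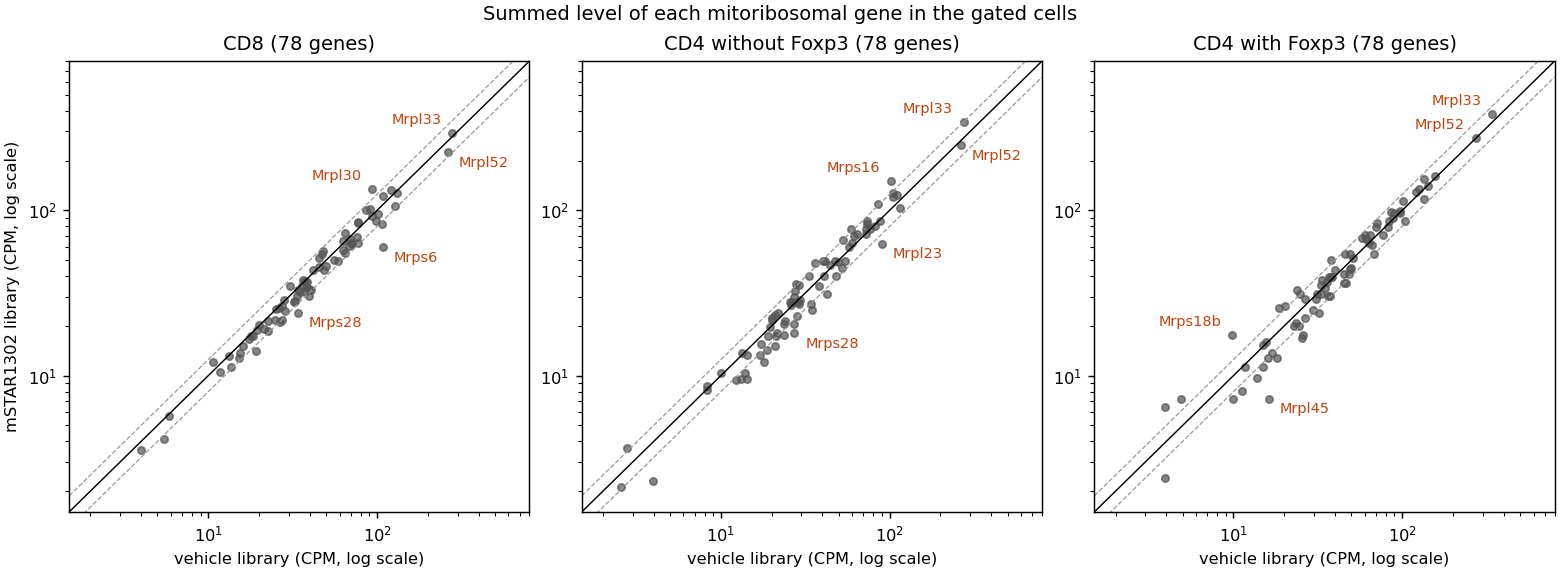
Level of each of the 78 mitoribosomal genes in the vehicle library (x axis) and the mSTAR1302 library (y axis), in CPM on log scales, 1 panel per gate and 1 point per gene. The solid line is equality and the dashed lines are ratios 25% higher and 20% lower. Most points lie between the dashed lines, and Mrps6 (59.7 against 109 CPM) and Mrpl30 (135 against 93.6 CPM) lie outside them in CD8 cells.

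In CD8 cells the whole family received 0.399% of UMIs in the mSTAR1302 library (95% Clopper-Pearson interval 0.397 to 0.401%) and 0.417% in the vehicle library (0.415 to 0.420%). The ratio of these shares was 0.956 (0.949 to 0.963), so the family was slightly lower in the mSTAR1302 library when scaled to all UMIs. The family was slightly higher, at 1.05, when scaled by the median ratio of genes above a minimum level. On the log2 scale the ratio of -0.06 was 0.019 without cells above 30000 UMIs and 0.013 without cells that held a macrophage marker. Mrpl genes had a ratio of 0.966 (0.957 to 0.975) and Mrps genes 0.939 (0.928 to 0.9504). Cytosolic ribosomal protein genes, a separate family, took 29.1% of UMIs in the mSTAR1302 library and 27.0% in the vehicle library, which lowers the share left to all other genes.

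Ratios of single members in CD8 cells were read from the 75 members with a mean of at least 10 CPM, on the scale of log2(CPM + 1). Their median log2 ratio was -0.09, and that of all 7108 genes past the same filter was -0.14. Scaled to all UMIs 20 of the 75 (26.7%) were above 0 and 55 below. Of the 7108 genes 1920 were above 0 and 5188 below, a similar share. Above the median of all genes were 45 of the 75. With median-ratio scaling 41 of the 75 were above 0 and their median was 0.03, where the median of all genes was -0.02. The threshold for counts was a log2 ratio of 0.32 in either direction, which is 25% higher or 20% lower. Past it, 1 member was higher in the mSTAR1302 library (6.57% of all genes were) and 6 were lower (25.5% of all genes were). The balance turned with the setting. Median-ratio scaling gave 4 higher (10.8% of all genes) and 2 lower (15.7%), and cells of 6000 to 12000 UMIs gave 8 of 74 higher (8% of all genes) and 2 lower (26.6%). At 1.5-fold no member was higher (2.86% of all genes) and 1, Mrps6, was lower (9.85%), and at 2-fold none was past in either direction (0.83% and 4.12%).

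**Figure D3:**
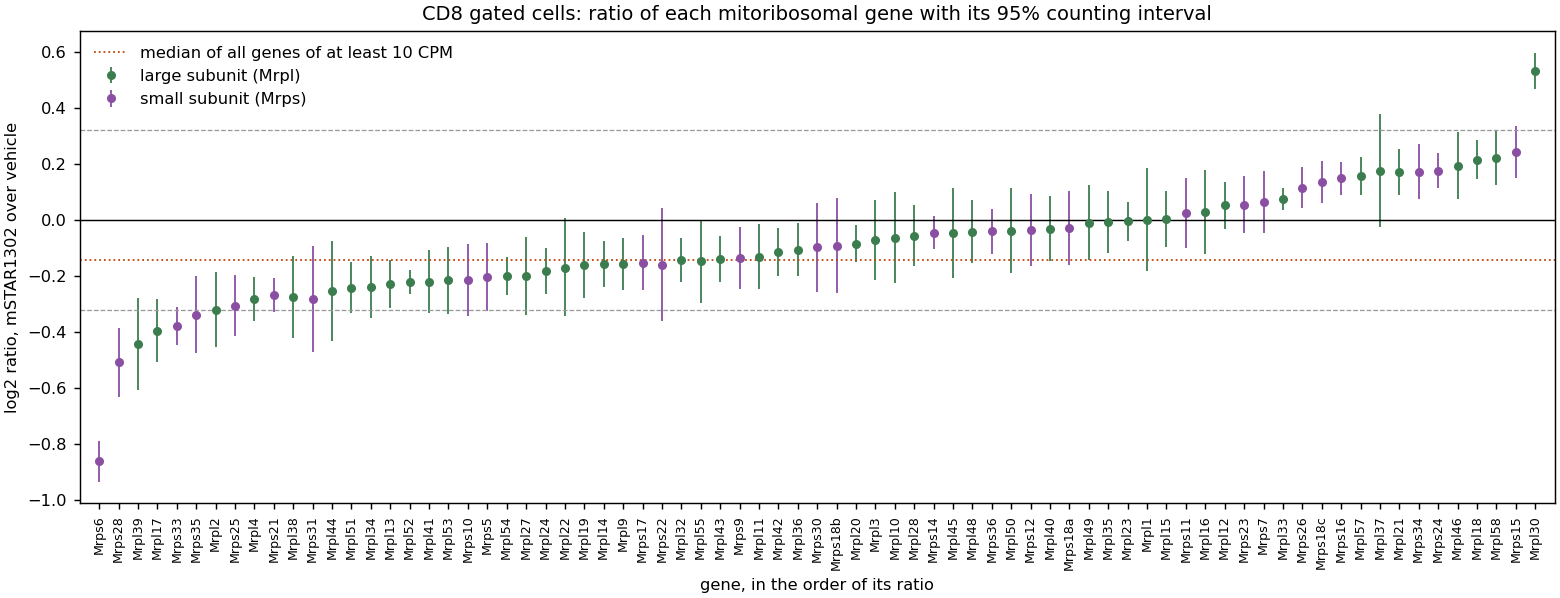
Log2 ratio of CPM, mSTAR1302 over vehicle (y axis), of the 75 mitoribosomal genes of at least 10 CPM in CD8 cells, ordered by ratio (x axis), in green for Mrpl and purple for Mrps genes. Bars are 95% conditional binomial intervals of counting error, dashed lines are the threshold of 0.32 in either direction, and the dotted line is the median of all genes (-0.14). Mrps6 and Mrpl30 stand apart at the ends; under median-ratio scaling the points move up and 41 in place of 20 lie above 0.

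Mrps6, a small subunit protein of the platform, was the member with the largest difference in CD8 cells. It stood at 59.7 CPM in the mSTAR1302 library (2914 UMIs, Poisson interval 57.6 to 61.9 CPM) and at 109 CPM in the vehicle library (3142 UMIs, 105 to 112 CPM). The ratio was 0.550 (0.523 to 0.579), or 1.82-fold lower. In the CD4 gates the libraries were close, at 63.6 and 59.7 CPM without Foxp3 and at 86.7 and 83.8 CPM with Foxp3. CD8 cells of the vehicle library thus held the highest of the 6 values, and the intervals of the 2 libraries overlapped in both CD4 gates. The difference in CD8 cells was present in each of 4 depth classes, with ratios from 0.310 to 0.711. It was 0.580 in cells without a UMI of the proliferation genes Mki67 or Top2a and 0.513 in cells with one. Without cells that held a macrophage marker the ratio was 0.544, and without cells that held a Foxp3 UMI it was 0.527. Near-empty droplets differed the same way, with 54.0 CPM from 12 UMIs and 98.2 CPM from 87 UMIs.

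Slc5a3, the myo-inositol transporter gene that shares its strand and stretch with Mrps6, moved alongside it in CD8 cells. Its levels there were 26.9 CPM in the mSTAR1302 library and 52.8 CPM in the vehicle library, a ratio of 0.509 (0.472 to 0.548). In the CD4 gates it stood at 35.0 and 39.1 CPM without Foxp3 and at 36.1 and 41.9 CPM with Foxp3. Gm16310, which also overlaps Mrps6, was at 3.44 and 6.94 CPM in CD8 cells. Mrps6 runs from chr16:92058270 to 92112227 on the plus strand, and how the UMIs of the overlapping genes were divided between them was not tested.

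Mrpl30, a large subunit protein with a bacterial counterpart, was the only member at least 25% higher in CD8 cells of the mSTAR1302 library when scaled to all UMIs. It stood at 135 CPM (6601 UMIs, Poisson interval 132 to 139 CPM) against 93.6 CPM in the vehicle library (2708 UMIs, 90.1 to 97.2 CPM), a ratio of 1.45 (1.38 to 1.51). The ratio lay between 1.33 and 2.29 in the 4 depth classes, the highest from 186 and 13 UMIs, and was 1.499 in cells without and 1.40 in cells with a UMI of Mki67 or Top2a. Without cells that held a macrophage marker it was 1.55. In CD4 cells without Foxp3 the levels were 127 and 105 CPM, and with Foxp3 they were 96.3 and 89.3 CPM, ratios of 1.21 (1.07 to 1.36) and 1.08 (0.887 to 1.30), of which the second interval includes 1. The difference between gates was not tested. Near-empty droplets stood at 148 CPM from 33 UMIs and 103 CPM from 91 UMIs. Mitd1, which starts 66 bp away on the other strand, was at 42.6 and 31.1 CPM in CD8 cells, a ratio of 1.37 (1.27 to 1.48). In the CD4 gates Mitd1 lay the other way, at 38.7 and 46.1 CPM without Foxp3 and at 41.7 and 46.9 CPM with Foxp3, and both intervals of the ratio include 1.

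**Figure D4:**
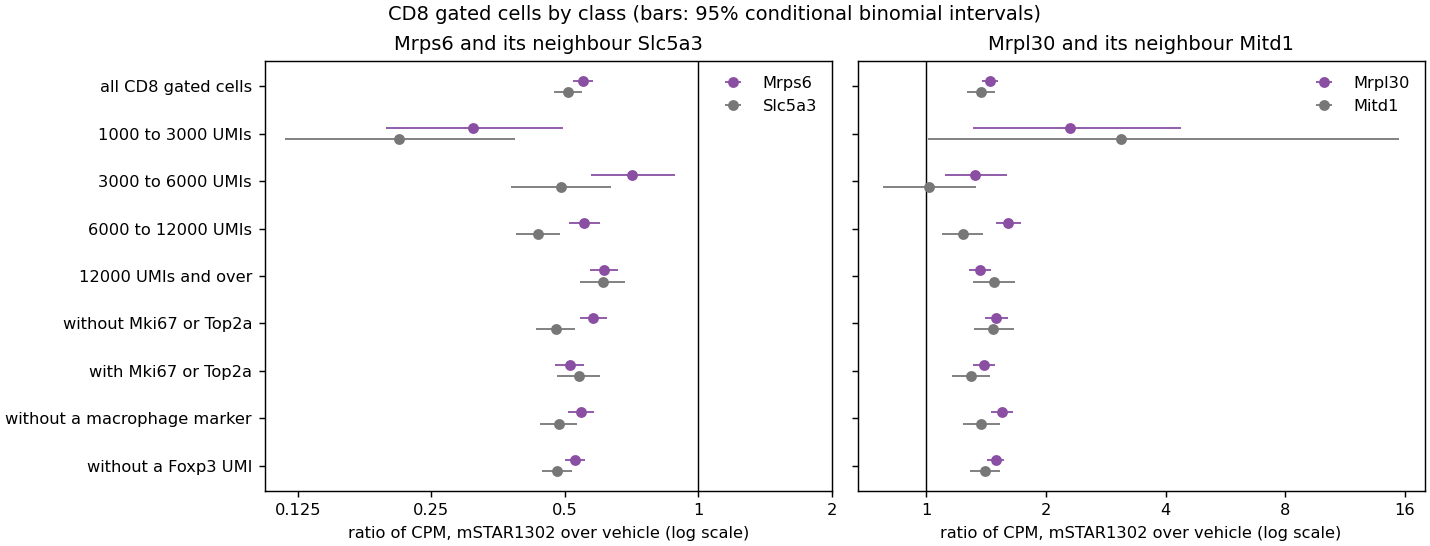
Ratio of CPM, mSTAR1302 over vehicle (x axis, log scale), of Mrps6 and its overlapping neighbour Slc5a3 (left) and of Mrpl30 and its divergent neighbour Mitd1 (right), in all CD8 cells and in classes of them (y axis). Points are ratios and bars 95% conditional binomial intervals of counting error. Mrps6 lies below 1 in every class shown (0.310 to 0.711) and Mrpl30 above 1 in every class shown (1.33 to 2.29).

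Other small subunit members at the lower end in CD8 cells differed less. Mrps28, which occupies the place of a bacterial mRNA-binding protein, stood at 24.0 CPM in the mSTAR1302 library and 34.1 CPM in the vehicle library (ratio 0.702, 0.645 to 0.765). Its level also climbed with the depth of the cells, and within cells of 6000 to 12000 UMIs its ratio was 0.851 (0.736 to 0.985). Mrps33 was at 82.4 and 107 CPM, Mrps35 at 21.1 and 26.7 CPM and Mrps25 at 32.8 and 40.5 CPM. These 3 also lay closer to 0 in cells of 6000 to 12000 UMIs, with log2 ratios of -0.24 in place of -0.38, -0.055 in place of -0.33 and -0.0070 in place of -0.30. On the side of higher ratios, Mrps15 stood at 56.5 and 47.8 CPM, Mrps24 at 122 and 108 CPM and Mrps34 at 51.4 and 45.6 CPM, ratios of 1.18, 1.13 and 1.13. None of these 3 passed the threshold.

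Large subunit members at the lower end were Mrpl39 (14.1 and 19.2 CPM), Mrpl17 (30.2 and 39.8 CPM) and Mrpl2 (21.8 and 27.3 CPM), the last a protein of the peptidyl transferase region. At the higher end after Mrpl30 were Mrpl58 (54.8 and 47.1 CPM), a peptidyl-tRNA hydrolase that became a ribosomal protein, Mrpl18 (99.8 and 86.0 CPM), Mrpl46 (34.9 and 30.5 CPM) and Mrpl21 (72.4 and 64.4 CPM). Their ratios were 1.16, 1.16, 1.14 and 1.12. Within cells of 6000 to 12000 UMIs the log2 ratio of Mrpl17 was 0.077 in place of -0.38 and that of Mrpl2 was -0.10 in place of -0.31, while Mrpl39 was at -0.41 in place of -0.42.

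The stalk proteins, which recruit translation factors, differed little in CD8 cells. Mrpl12 stood at 65.3 CPM in the mSTAR1302 library and 63.0 CPM in the vehicle library, Mrpl11 at 31.8 and 34.9 CPM and Mrpl10 at 16.7 and 17.4 CPM. None of the 3 passed the threshold in any gate, and their median log2 ratio in CD8 cells was -0.06.

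Proteins around the exit of the nascent chain include Mrpl45, which holds the ribosome at the inner membrane. 5 of the 6 passed the filter in CD8 cells, all 5 below 0, with a median of -0.16 and with Mrpl17 past the threshold. Mrpl24 stood at 62.9 and 71.4 CPM, Mrpl22 at 13.8 and 15.5 CPM, Mrpl45 at 17.3 and 17.9 CPM and Mrpl23 at 92.5 and 92.9 CPM. Mrpl47 had 5.74 and 5.84 CPM and was below the filter. Since 55 of the 75 members lay below 0 on this scale, 5 of 5 is no mark of this group.

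The central protuberance carries proteins that mitochondria added to the large subunit. Its 6 members had a median log2 ratio of -0.04 in CD8 cells, and none passed the threshold. Mrpl18 and Mrpl46 were above 0, as given. Mrpl38 stood at 18.7 and 22.6 CPM, Mrpl27 at 21.6 and 24.8 CPM, Mrpl40 at 33.1 and 33.9 CPM and Mrpl48 at 34.8 and 35.8 CPM.

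In the small subunit, the decoding and mRNA channel group of 4 had 3 members past the filter with a median of -0.03. Mrps12, at the decoding centre, stood at 26.5 and 27.2 CPM, Mrps5 at 27.8 and 32.0 CPM and Mrps24 was above 0. Mrps2 had 3.55 and 3.97 CPM and was below the filter. The 7 proteins of the head had the lowest median of the role groups, -0.21, with Mrps33 and Mrps35 past the threshold downward, where 25.5% of all genes were. Neither was past it in cells of 6000 to 12000 UMIs. Mrps31 stood at 11.3 and 13.7 CPM, Mrps10 at 24.6 and 28.5 CPM, Mrps9 at 34.5 and 38.01 CPM and Mrps7, above 0, at 37.8 and 36.2 CPM.

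In CD4 cells without Foxp3 the family share was 0.374% (0.368 to 0.379%) in the mSTAR1302 library and 0.359% (0.353 to 0.364%) in the vehicle library, a ratio of 1.04 (1.02 to 1.06). 73 members passed the filter with a median log2 ratio of -0.01, against -0.23 for all 7001 genes, and 54 of them were above the median of all genes. 36 were above 0, as were 1786 of the 7001 genes. With median-ratio scaling 52 were, where the median of all genes was -0.04. Past the threshold 5 were higher (6.3% of all genes) and 14 lower (39.4% of all genes). With median-ratio scaling the balance turned, to 22 higher (14.8%) and 4 lower (22.8%), and in cells of 6000 to 12000 UMIs 16 were higher (10.9%) and 13 lower (36.5%). None was past 1.5-fold (2.01% and 17.2% of all genes were higher and lower) or 2-fold (0.714% and 5.3%). Summed macrophage markers stood at 76.4 CPM in the mSTAR1302 library and 797 CPM in the vehicle library in this gate. Without the cells that held such a UMI the log2 ratio of the family share was 0.13 in place of 0.06.

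Mrps16 led the higher members in this gate, with 150 CPM (782 UMIs, Poisson interval 139 to 161 CPM) against 102 CPM (442 UMIs, 93.0 to 112 CPM), a ratio of 1.46 (1.30 to 1.65). In CD8 cells its ratio was 1.11 and in CD4 cells with Foxp3 it was 1.16. Mrps34 stood at 48.2 and 36.1 CPM, Mrpl43 at 77.5 and 59.3 CPM and Mrpl57 at 109 and 85.4 CPM. At the lower end Mrpl23, at the exit of the nascent chain, stood at 62.6 and 90.5 CPM, a ratio of 0.692 (0.595 to 0.803), where CD8 cells had 92.5 and 92.9 CPM. Mrps28 stood at 18.0 and 27.3 CPM, Mrps30 at 12.1 and 18.1 CPM and Mrpl22 at 9.57 and 14.4 CPM. Despite its name, the product of Mrps30 is known to sit in the large subunit.

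In CD4 cells with a Foxp3 UMI the family share was 0.442% (0.430 to 0.453%) and 0.435% (0.432 to 0.438%), a ratio of 1.02 (0.987 to 1.04) whose interval includes 1. 73 members passed the filter with a median log2 ratio of 0.00, against -0.13 for all 7268 genes, and 48 of them were above the median of all genes. 37 were above 0, as were 2358 of the 7268 genes. With median-ratio scaling 48 were, where the median of all genes was -0.01. Past the threshold 5 were higher (7.18% of all genes) and 9 lower (26.8% of all genes). Here too the balance turned, to 11 higher (13.7%) and 5 lower (16.8%) with median-ratio scaling and to 23 higher (16.8%) and 7 lower (32.6%) in cells of 6000 to 12000 UMIs. At 1.5-fold 1 was higher, Mrps18b (2.23% of all genes), and 1 lower, Mrpl45 (9.36%), and at 2-fold 0 were higher (0.482%) and Mrpl45 was lower (1.97%). The 146 cells of the mSTAR1302 library limit this gate: its members had from 3 to 479 UMIs there. Only 55 of the 146 had 6000 to 12000 UMIs, against 623 of 1365 in the vehicle library. Macrophage markers stood at 9.63 CPM, with C1qa, Csf1r and Adgre1 at 0, against 229 CPM with all 6 detected, and without cells that held such a UMI the log2 ratio of the share was 0.11 in place of 0.02.

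Mrpl45 had the lowest ratio among the members past the filter in the Foxp3 gate, with 9 UMIs in the mSTAR1302 library (7.22 CPM, Poisson interval 3.30 to 13.7 CPM) against 233 UMIs (16.2 CPM, 14.1 to 18.4 CPM), a ratio of 0.447 (0.202 to 0.864). Mrps18b had the highest ratio, with 22 UMIs (17.7 CPM) against 141 UMIs (9.77 CPM), a ratio of 1.81 (1.10 to 2.84). Both rest on few UMIs, and the intervals of the other named members in this gate include 1. These were Mrpl2 (16.8 and 25.6 CPM), Mrps35 (17.7 and 25.9 CPM) and Mrpl44 (9.63 and 13.9 CPM) at the lower end, and Mrpl55 (25.7 and 18.5 CPM), Mrps10 (32.9 and 23.9 CPM) and Mrpl58 (49.7 and 37.985 CPM) at the higher end.

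Of the 73 members past the filter in the 3 gates, 12 had a log2 ratio above 0 in each gate and 22 below 0 in each, scaled to all UMIs. These are 16.4% and 30.1% of the 73, against 6.74% and 45.8% of the 6494 genes past the filter in the 3 gates. With median-ratio scaling 23 members were above 0 in each (18.8% of all genes) and 5 below (22.8% of all genes). Scaled to all UMIs, the 12 were Mrpl30, Mrps15, Mrpl58, Mrps24, Mrps34, Mrpl21, Mrpl57, Mrps16, Mrpl33, Mrps7, Mrps23 and Mrpl12. The 22 were Mrps28, Mrps33, Mrps35, Mrps25, Mrpl38, Mrps31, Mrpl44, Mrpl13, Mrpl53, Mrpl9, Mrps17, Mrpl32, Mrpl11, Mrpl42, Mrps30, Mrpl3, Mrpl28, Mrps14, Mrpl45, Mrpl50, Mrpl49 and Mrpl23. The gates come from the same 2 libraries and are not independent, and most of the ratios behind these counts are within the threshold.

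Within each library the family share climbed with the number of UMIs per cell. In CD8 cells of the mSTAR1302 library it was 0.296% at 1000 to 3000 UMIs, 0.344% at 3000 to 6000, 0.390% at 6000 to 12000 and 0.453% above that. In the vehicle library the same classes had 0.260%, 0.315%, 0.366% and 0.464%. Both CD4 gates had the same order in both libraries. Since the denominators hold all UMIs of the cells, this is a difference in composition and not only in amount.

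Within 3 of these 4 classes the libraries differed in the other direction from the whole CD8 gate. The ratio of shares, mSTAR1302 over vehicle, was 1.14 (1.05 to 1.24), 1.09 (1.06 to 1.13) and 1.07 (1.05 to 1.08) in the 3 lower classes and 0.975 (0.966 to 0.985) in cells over 12000 UMIs. The whole gate was at 0.956, and CD8 cells had a median of 6598 UMIs in the mSTAR1302 library and 9866 UMIs in the vehicle library. In CD4 cells without Foxp3 the ratios were 1.40, 1.10, 1.09 and 0.901, and in CD4 cells with Foxp3 they were 1.06, 1.10, 1.13 and 1.01. Thinning each CD8 cell to 3000 UMIs left 5610 and 2340 cells, with 680 and 120 shallower cells left out, and gave a mean of 11.4 member UMIs per cell in both libraries. The median number of members detected per thinned CD8 cell was 10 in both, against 18 and 25 before thinning.

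**Figure D5:**
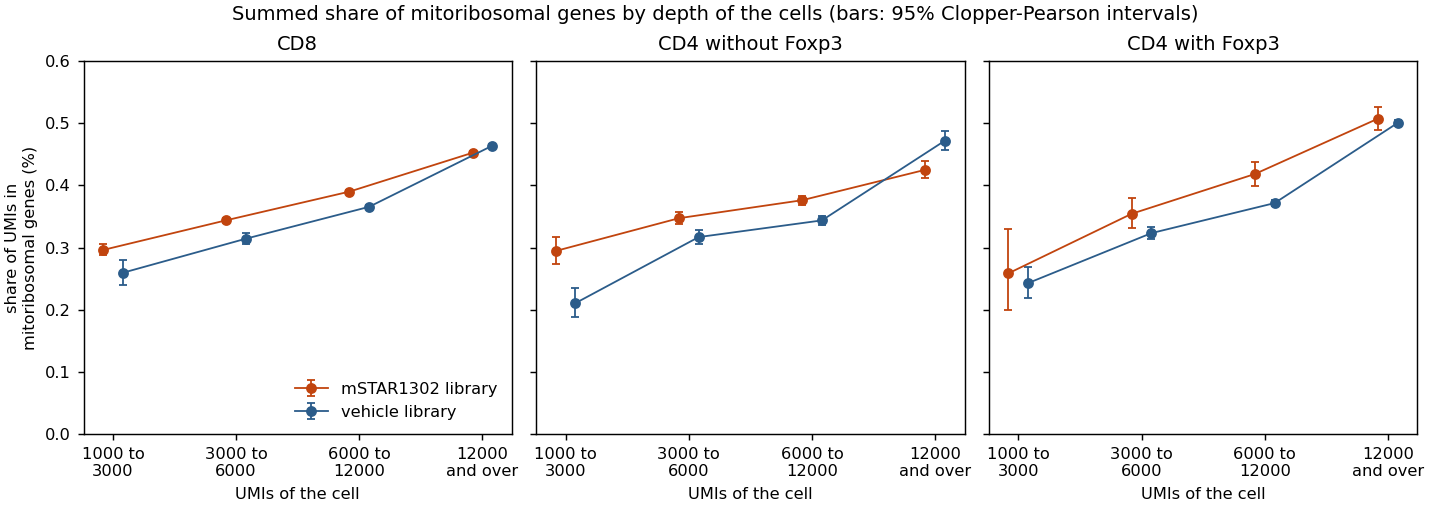
Share of UMIs in the 78 mitoribosomal genes (y axis, percent) in cells of 4 depth classes by total UMIs (x axis), for the mSTAR1302 (orange) and vehicle (blue) libraries, 1 panel per gate. Points are shares of summed UMIs and bars 95% Clopper-Pearson intervals of counting error. All 6 lines climb from left to right, in CD8 cells from 0.296% to 0.453% and from 0.260% to 0.464%, and the order of the libraries in CD8 cells turns over in the highest class.

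Most members shared this relation to depth. Between CD8 cells of over 12000 and of 3000 to 6000 UMIs, 50 of 75 members in the mSTAR1302 library were at least 25% higher in the deeper cells (22.4% of all genes were) and 58 of 74 in the vehicle library (27.5% of all genes). None was lower by that fold in either library, where 17.2% and 33% of all genes were. 46 of the 74 members past the filter in both were higher in both. For all genes the share higher in both libraries was not computed. Mrpl51 stood at 65.8 CPM in deep and 34.2 CPM in shallower cells of the mSTAR1302 library and at 76.2 and 32.0 CPM in the vehicle library. Mrpl18 had 128 and 69.1 CPM in the first and 101 and 59.8 CPM in the second. Mrpl30 was not among the 46, with 135 and 129 CPM and with 98.8 and 97.4 CPM. Whether deep barcodes hold larger cells or more than 1 cell was not tested.

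Cells with a UMI of Mki67 or Top2a, which are switched on in proliferating cells, had higher family shares in CD8 cells of both libraries. The ratio to cells without such a UMI was 1.11 (1.10 to 1.12) in the mSTAR1302 library and 1.18 (1.17 to 1.19) in the vehicle library. 13 and 23 members were at least 25% higher (12.4% and 15.7% of all genes) and none was past the threshold downward (1.34% and 4.83%). The 11 that were higher in both libraries were Mrpl18, Mrpl51, Mrpl13, Mrps25, Mrpl45, Mrps12, Mrpl28, Mrpl42, Mrps18b, Mrpl35 and Mrpl49. How many of all genes were higher in both was not computed. Mrpl18 was at 126 CPM with and 79.6 CPM without such a UMI in the mSTAR1302 library, and at 104 and 66.2 CPM in the vehicle library. Mrps6 was at 56.2 and 62.4 CPM in the first and 109 and 108 CPM in the second.

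CD8 cells with such a UMI were deeper, with medians of 8457 against 5819 UMIs in the mSTAR1302 library and 11346 against 9022 UMIs in the vehicle library. Among CD8 cells of 6000 to 12000 UMIs the ratio of the family share, with over without, was 1.04 (1.03 to 1.05) in the mSTAR1302 library and 1.01 (0.987 to 1.03) in the vehicle library, with 4 and 1 members past the threshold upward (10.2% and 8.07% of all genes) and 1 and 4 downward (1.78% and 3.12%), none of them in both libraries. The CD4 gates differed from each other in this depth class. With Foxp3 the ratio was 1.17 (1.06 to 1.28) in the mSTAR1302 library, from 27 and 28 cells, where the whole gate had 1.18. Both shares were 0.372% in the vehicle library, where the whole gate had 1.21. Without Foxp3 it was 1.01 (0.971 to 1.05) in the mSTAR1302 library and 1.14 (1.09 to 1.20) in the vehicle library, against 1.06 and 1.13 in the whole gates. The share of CD8 cells with such a UMI was 33.3% in the mSTAR1302 library and 42.5% in the vehicle library. Between the libraries, mSTAR1302 over vehicle, the ratio of family shares was 0.999 (0.988 to 1.01) among CD8 cells without one and 0.941 (0.932 to 0.951) among CD8 cells with one.

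Gates were compared within each library, where both values come from 1 preparation. CD4 cells with Foxp3 had the highest family share and CD4 cells without it the lowest in both libraries. The ratio of the first to the second was 1.18 (1.15 to 1.22) in the mSTAR1302 library and 1.21 (1.19 to 1.23) in the vehicle library. 34 and 28 of 73 members were at least 25% higher with Foxp3 (38.7% and 29.4% of all genes), and 4 and 1 were lower (14.5% and 15.2% of all genes). 21 were higher in both libraries and none was lower in both, with no share of all genes computed for comparison. Mrps25 stood at 40.9 CPM with and 23.0 CPM without Foxp3 in the mSTAR1302 library, and at 45.1 and 28.2 CPM in the vehicle library. Mrpl18 stood at 117 and 76.8 CPM in the first and 134 and 76.4 CPM in the second. Mrpl30 had the other direction, at 96.3 and 127 CPM and at 89.3 and 105 CPM. A gate that asks for a Foxp3 UMI also takes deeper cells, with medians of 6460 against 6055 UMIs and 8340 against 6415 UMIs. In cells of 3000 to 6000 UMIs the shares with and without Foxp3 were 0.355% and 0.347% in the mSTAR1302 library. The vehicle library had 0.323% and 0.317% there. At 6000 to 12000 UMIs they were 0.418% and 0.376%, and 0.372% and 0.344%. Over 12000 UMIs they were 0.508% and 0.425%, and 0.501% and 0.472%. At 1000 to 3000 UMIs the mSTAR1302 library had the reverse order, 0.259% from 12 cells and 0.295%. The vehicle library had 0.243% and 0.211% in that class.

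Against CD8 cells, CD4 cells without Foxp3 had a family share lower by a ratio of 0.937 (0.923 to 0.951) in the mSTAR1302 library and 0.860 (0.845 to 0.874) in the vehicle library. CD8 cells were also deeper, with medians of 6598 against 6055 UMIs and 9866 against 6415 UMIs. Within depth classes the order was mixed. In the vehicle library CD4 cells without Foxp3 had 0.211%, 0.317%, 0.344% and 0.472% from the lowest to the highest class. CD8 cells there had 0.260%, 0.315%, 0.366% and 0.464%. In the mSTAR1302 library the values were 0.295%, 0.347%, 0.376% and 0.425% against 0.296%, 0.344%, 0.390% and 0.453%. 23 and 26 of 74 members were at least 20% lower (16.4% and 16.8% of all genes) and none higher (10.5% and 21.8% of all genes). The 10 that were lower in both were Mrps25, Mrpl12, Mrpl35, Mrps36, Mrpl39, Mrpl49, Mrps18b, Mrpl42, Mrps5 and Mrps11. The share of all genes lower in both was not computed. Mrpl12, of the stalk, stood at 46.5 CPM in these cells and 65.3 CPM in CD8 cells of the mSTAR1302 library, and at 44.2 and 63.0 CPM in the vehicle library. CD4 cells with Foxp3 had higher shares than CD8 cells, at ratios of 1.11 (1.08 to 1.14) and 1.04 (1.03 to 1.05). Only in the vehicle library were they closer to CD8 cells than CD4 cells without Foxp3 were. There 13 and 5 members were at least 25% higher (34.9% and 30.8% of all genes) and 10 and 5 lower (15.4% and 13.5%), of which Mrpl27 and Mrpl14 were higher and Mrpl38 lower in both libraries.

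Other genes of mitochondrial translation were read in CD8 cells against the same background, a median log2 ratio of -0.14 with 6.57% of all genes higher and 25.5% lower. The 5 proteins of the mitochondrial ribosome whose symbols lack the prefix, such as Dap3 of the small subunit, had a median log2 ratio of -0.06 and none past the threshold. Of 15 translation factors and mRNA-handling proteins 8 passed the filter with a median of -0.24, and 2 of the 8 were lower. These were Tsfm, an elongation factor, at 15.7 and 21.1 CPM, and Slirp, which protects mitochondrial mRNAs, at 52.0 and 70.2 CPM. Of 23 assembly and rRNA factors 9 passed with a median of -0.19, of which Mterf3 was lower at 12.5 and 18.6 CPM. Of 17 mitochondrial tRNA synthetases 6 passed with a median of -0.09. Lars2, for leucine, was higher at 682 and 392 CPM, a ratio of 1.74 (1.70 to 1.78), and Fars2 (16.005 and 25.02 CPM) and Iars2 (14.2 and 20.4 CPM) were lower.

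Regulators of mitochondrial DNA and biogenesis, which include Nrf1, Gabpa and Yy1, had 11 of 17 genes past the filter in CD8 cells with a median of -0.08 and none past the threshold. In CD4 cells without Foxp3 their median was -0.30 and 6 of 12 were lower, among them Myc at 11.1 and 28.0 CPM, where all genes had a median of -0.23 and 39.4% were lower. Of 12 chaperones and proteases Lonp1 (17.6 and 22.9 CPM) and Htra2 (9.53 and 20.4 CPM) were lower in CD8 cells, with a median of -0.12 over the list. The 13 mRNAs that the mitochondrial ribosome translates had a median of 0.11 in CD8 cells, none past the threshold. In CD4 cells with Foxp3 their median was 0.40 and 8 of 13 were higher. All genes had a median of -0.13 there with 7.18% higher, and the members had a median of 0.00. A filter on the mitochondrial share of each cell bounds these mRNAs and not the members.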

How the data were processed

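Per the labels, libraries were 3' single-cell libraries. The authors deposited unfiltered UMI counts for each gene in each barcode. Cell Ranger produced them, as version 4 in the file headers but 6.0.1 in the submitters' processing notes, so which one applies is uncertain. Those notes list mm10, Seurat, FastQC and MultiQC 1.9. The release of the gene annotation and the counting settings are not given in the sources that were used. Counts were used as deposited.

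Barcodes with at least 1000 UMIs, 500 genes and at most 10% mitochondrial UMIs were kept. T cells had at least 2 UMIs of Cd3d, Cd3e and Cd3g, and gates needed at least 1 UMI of Cd8a or Cd8b1 without Cd4, or the reverse. No doublet caller was run here, and doublets remain. 17 barcodes were kept in both libraries. UMIs were summed per gate and library and scaled to CPM. Log2 ratios used a pseudocount of 1 CPM, which understates the differences of low genes, and a minimum of 10 CPM as the mean of both libraries. Ratios and their intervals used no pseudocount. Median-ratio scaling took its factor from genes with UMIs in both libraries and a higher minimum than 10 CPM. Intervals are exact (Clopper-Pearson for shares, Poisson for levels, conditional binomial for ratios, 95%).

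The 78 members and all lists were chosen with earlier results of these data known. Named were the 8 highest and 8 lowest log2 ratios and 6 most abundant members in CD8 cells, 4 each way with at least 50 UMIs in each CD4 gate, members of the role lists, and at most 3 each way of the other lists. Values of other members in comparisons of gates, depth and proliferation were picked after they were seen. Counts of members past the threshold in both libraries needed at least 50 UMIs in each library. The matching counts over all genes were not computed, so these counts have no background. All 78 identifiers matched GENCODE M21 on GRCm38, and 69 symbols matched RefSeq promoters. Alternatives covered scaling, thinning, depth, filters, thresholds, gates and left-out cells. Code was tested on simulated data. The code used pandas 2.3.3, SciPy 1.17.1 and NumPy 2.4.6 under Python 3.11.15, with plots from matplotlib 3.10.9.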

Additional observations from a re-analysis of the deposited data

Results flagged for a closer look

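Mrpl16 lay on opposite sides in the CD4 gates, with a log2 ratio, mSTAR1302 over vehicle, of 0.37 with Foxp3 and -0.36 without. It rested on 33 and 293 UMIs with Foxp3 and on 75 and 81 UMIs without, and both intervals of the ratio include 1. Mrps18b likewise had 0.79 with Foxp3, from 22 and 141 UMIs, and -0.35 without, from 49 and 53 UMIs. Neither difference between gates was tested, since each gate has 1 library per group.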

How the results depend on the processing

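Every value rests on 1 library per group, so no replicate could be left out, and no paired analysis was possible because each group is 1 library. Depth limits the CD4 gates most, above all the 146 cells with Foxp3 of the mSTAR1302 library. All log2 ratios here are mSTAR1302 over vehicle, and gates are given in the order CD8, CD4 without Foxp3, CD4 with Foxp3. The log2 ratio of the family share (below, the share) was -0.06, 0.06 and 0.02, the median of members at -0.09, -0.01 and 0.00, with 1, 5 and 5 members at least 25% higher and 6, 14 and 9 at least 20% lower. Where a setting changed them, the cause was not tested. Shares of all genes past the threshold were computed only for the main setting, the other folds, median-ratio scaling and the setting limited to a depth class. For settings below that change cells, weights, denominator, pseudocount or filter in other ways, no such share was computed. Their counts of members past the threshold have no background and cannot be read as particular to the members. Mrps6 stayed between -0.93 and -0.72 and Mrpl30 between 0.51 and 0.68 in CD8 cells under all 17 alternatives run for them.

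With median-ratio scaling, which shifts the medians of all genes from -0.14, -0.23 and -0.13 to -0.02, -0.04 and -0.01, the share was 0.070, 0.25 and 0.15, the median 0.034, 0.17 and 0.13, with 4, 22 and 11 higher and 2, 4 and 5 lower. Without mitochondrial and cytosolic ribosomal protein UMIs in the denominator the share was -0.0091, 0.14 and 0.10, the median with Foxp3 0.077, and 12 members were higher in CD4 cells without Foxp3. With each cell weighted equally the share was -0.012 in CD8 and 0.13 in CD4 without Foxp3, the medians there -0.016 and 0.10, 13 members were higher without Foxp3 and 19 lower with Foxp3. Thinned to 3000 UMIs, the share was -0.0022 in CD8 and 0.095 without Foxp3, the median -0.0010 in CD8, with 4, 13 and 14 higher and 19 lower with Foxp3, where Mrpl2 turned to 0.12.

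Without cells above 30000 UMIs the CD8 share was 0.019, its median 0.042, with 3 members higher and 3 lower. Without cells that held Mki67 or Top2a the share was -0.0018 in CD8 and 0.093 without Foxp3, the CD8 median -0.023, with 2, 11 and 13 higher and 16 lower with Foxp3, where Mrpl44 turned to 0.031 and Mrps10 to -0.23. Stricter T cell and lineage thresholds gave a CD8 share of -0.019, a median of -0.028 and 2 members higher. A CD8 gate without Foxp3 cells had a share of -0.037. With at most 5% mitochondrial UMIs 9 members were higher in CD4 without Foxp3, and a pseudocount of 5 CPM left 9 lower there.

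At a minimum of 50 CPM the medians in the CD4 gates were 0.16 and 0.066, with 3 and 0 higher and 1 and 0 lower, and 2 lower in CD8. At 1.5-fold 0, 0 and 1 were higher and 1, 0 and 1 lower, and at 2-fold none was higher and 0, 0 and 1 lower. Large subunit members alone had a CD8 share of -0.050, with 2 and 3 higher in the CD4 gates and 2 and 8 lower in CD8 and CD4 without Foxp3. Small subunit members alone had -0.091, with 0, 3 and 2 higher and 6 and 3 lower in the CD4 gates.

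Settings added after the data were seen were cells of 6000 to 12000 UMIs only and gates without cells that held a macrophage marker. The first gave a share of 0.093, 0.13 and 0.17 and a median of 0.10, 0.14 and 0.13. It had 8, 16 and 23 higher and 2 lower in CD8. The 23 rest on 55 cells of the mSTAR1302 library. Mrpl17 in CD8 turned to 0.077 and Mrpl44 with Foxp3 to 0.13. The second gave a share of 0.013, 0.13 and 0.11, a median of 0.0082, 0.089 and 0.093, with 3, 12 and 11 higher and 3 lower in CD8.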
